A study of Mus musculus with 6 samples.

Results

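Messenger RNA levels were examined for 8 genes that set up or mark GABAergic interneurons, namely Dlx1, Dlx2, Dlx5, Dlx6, Lhx6, Sox6, Gad1 and Gad2. They were 8 of the 21006 genes measured in the prefrontal cortex, the front part of the cortex, and all 8 were protein-coding. The samples came from 6 aged male wild type C57BL/6 mice with an age label of 18 months, although the sample titles carry the tag 17M. PND stands for postoperative neurocognitive disorder, and the 3 mice of this group had isoflurane anesthesia plus exploratory laparotomy, an operation in which the abdomen is opened and inspected. The 3 CON mice had neither before the behavioral tests. Both groups went through the same memory tests and were anesthetized with isoflurane when the tissue was taken, and each sample was 1 animal. Because anesthesia and surgery were always combined, their effects cannot be told apart.

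The genes were chosen from symbols, and the choice was in part selected on the measured values, since Dlx1 was already known to be low in PND. The differences between PND and CON are therefore a description, with a standard error and no p-value. Levels are given in FPKM (sequenced fragments divided by exon length and by depth), so that they can be compared between genes.

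Inhibitory neurons of the cortex are born outside it, in the ganglionic eminences of the embryonic forebrain, and migrate into the cortex. DLX proteins are homeodomain transcription factors that commit these cells to a GABAergic fate, and their genes lie in the genome as neighbouring pairs. Lhx6 and Sox6 act in the interneurons of the medial eminence, many of which later express parvalbumin or somatostatin, and the GAD enzymes make GABA from glutamate. Several of these genes are not limited to cortical interneurons, as striatal projection neurons are GABAergic too and Sox6 is also active in oligodendrocyte precursors.

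The promoter windows of the pair that differed most between its members, Dlx1 and Dlx2, are shown with those of Gad1 and Gad2, the GABA-producing genes that DLX proteins are known to activate. They are RefSeq windows of GRCm38.p6, from 250 bases before to 50 bases after a RefSeq start, on the strand of the gene. Capitals mark TAAT or its reverse complement ATTA, the core letters bound by many homeodomain proteins.

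Dlx1, chr2:71529195-71529494, plus strand: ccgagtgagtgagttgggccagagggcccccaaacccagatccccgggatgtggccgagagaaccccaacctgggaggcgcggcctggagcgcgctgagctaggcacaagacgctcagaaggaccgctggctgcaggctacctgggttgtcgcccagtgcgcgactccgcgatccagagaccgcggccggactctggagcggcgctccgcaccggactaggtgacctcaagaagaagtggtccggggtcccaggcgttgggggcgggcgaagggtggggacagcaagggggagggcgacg
Dlx2, chr2:71546705-71547004, minus strand: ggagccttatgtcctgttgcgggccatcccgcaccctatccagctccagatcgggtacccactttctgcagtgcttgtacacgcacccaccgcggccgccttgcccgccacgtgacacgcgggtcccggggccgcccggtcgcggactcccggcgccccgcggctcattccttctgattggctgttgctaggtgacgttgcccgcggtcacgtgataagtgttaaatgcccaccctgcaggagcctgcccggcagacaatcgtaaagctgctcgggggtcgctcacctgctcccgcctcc
Gad1, chr2:70561879-70562178, plus strand: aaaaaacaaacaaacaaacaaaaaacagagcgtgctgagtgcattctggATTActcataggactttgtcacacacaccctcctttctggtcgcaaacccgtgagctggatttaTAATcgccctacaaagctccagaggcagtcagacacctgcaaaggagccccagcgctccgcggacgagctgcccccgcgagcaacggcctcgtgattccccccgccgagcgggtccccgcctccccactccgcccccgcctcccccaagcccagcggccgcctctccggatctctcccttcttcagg
Gad2, chr2:22622077-22622376, plus strand: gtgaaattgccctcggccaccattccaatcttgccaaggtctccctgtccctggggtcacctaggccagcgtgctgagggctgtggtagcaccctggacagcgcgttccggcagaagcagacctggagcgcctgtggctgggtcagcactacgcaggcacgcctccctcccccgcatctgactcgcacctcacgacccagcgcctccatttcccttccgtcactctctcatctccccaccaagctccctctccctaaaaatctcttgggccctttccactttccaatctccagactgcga

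The window of Dlx1 has a GC content of 69.3% and that of Dlx2 66.3%, against a median of 52.7% over 32851 windows. Gad1 has 60.0% and Gad2 61.3%. TAAT on either strand is found 2 times in the Gad1 window and 0 times in those of Dlx1, Dlx2 and Gad2, while 58.0% of all windows hold it. The longer palindrome TAATTA is in none of the 4 windows and in 5.3% of all windows. A CCAAT motif, searched on both strands, is found 1 time for Dlx2 and 2 times for Gad2, and 37.4% of all windows hold it. Windows were matched for 6 of the 8 genes. In GENCODE M21 the annotated Dlx1 and Gad1 genes begin upstream of these windows, so each window covers only one start of its gene.

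Dlx1 had the lowest levels in PND. Its level was 0.149, 0.262 and 0.121 FPKM in PND replicates 1 to 3. In CON replicates 1 to 3 it was 1.79, 0.521 and 0.734 FPKM. All 3 PND samples lay below all 3 CON samples, and CON replicate 1 stood well above the other two. Means with SD (n = 3) were 1.01 ± 0.678 FPKM for CON and 0.177 ± 0.0750 FPKM for PND, so that the CON mean was 5.72 times the PND mean. This ratio was 3.54 without CON replicate 1 and at most 7.52, without PND replicate 2. The difference of PND minus CON was -1.87 (SE 0.48) on the log2(FPKM + 0.1) scale, where the added 0.1 makes differences between low values look smaller. Leaving out single samples moved it between -2.21 without CON replicate 2 and -1.41 without CON replicate 1. After correction for GC content it was -1.92. With an added 1 FPKM in place of 0.1 it was -0.73.

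Dlx1 (ENSMUSG00000041911, chromosome 2, 71528113 to 71533981 in GRCm38, plus strand) was weakly expressed, with a mean level at the 22.9th percentile of the genes tested. The fragments behind its values were estimated from the steps of the low FPKM values. The estimate was 7.14, 11.2 and 6.11 fragments in the PND samples and 72.1, 22.9 and 28.6 in the CON samples. The PND values of Dlx1 thus rest on a sum of about 24.4 fragments. Of its merged exon length of 5396 bases, 335 bases (6.2%) are shared with exons of Dlx1as, a transcript from the opposite strand. The use of strand in the counting was not stated, so fragments in that stretch could not be assigned to either gene. The level of Dlx1as overlapped between the groups, with a log2 difference of -0.12 (SE 0.29) between 1.88 ± 0.360 FPKM in PND and 2.11 ± 0.711 FPKM in CON.

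**Figure D1:**
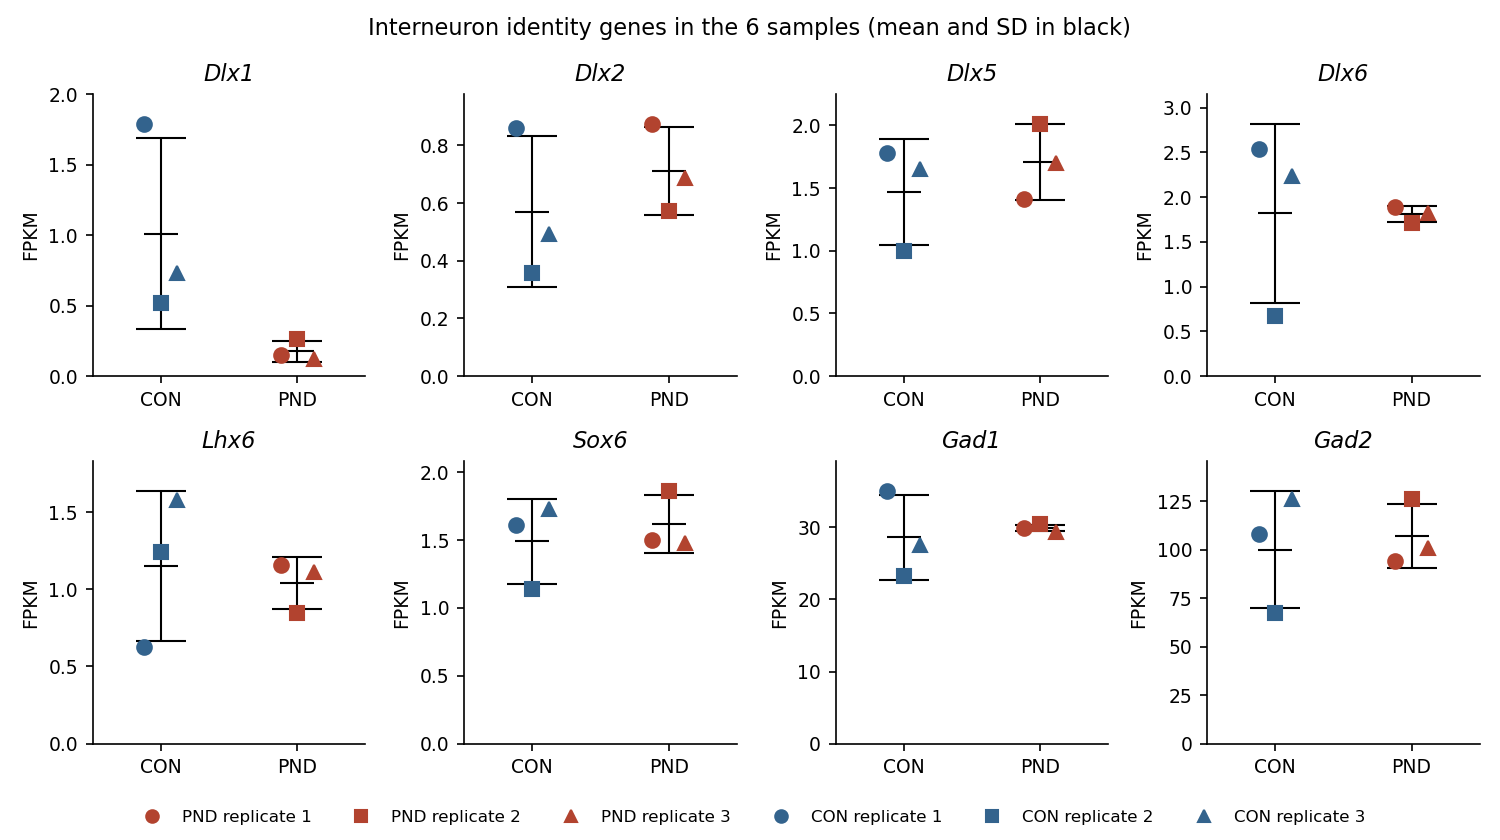
FPKM of each of the 8 genes (vertical axes, linear, from 0) in the CON and PND samples, with 1 point per animal, the replicate number as its shape, and the group mean and SD in black. Dlx1 is separated between the groups (0.121 to 0.262 FPKM in PND, 0.521 to 1.79 FPKM in CON), while the groups of the other 7 genes overlap.

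Dlx2, the neighbour of Dlx1 on chromosome 2, acts in the same progenitors and overlaps with it in function. It lies at 71543408 to 71546754 on the minus strand (ENSMUSG00000023391), and the gap between the 2 genes is 9426 bases. Dlx2 was at 0.875, 0.571 and 0.687 FPKM in PND and at 0.861, 0.356 and 0.493 FPKM in CON. The groups overlapped, and the log2 difference was 0.33 (SE 0.36). It rested on an estimated 8.28 to 22.1 fragments per sample.

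The ratio of Dlx1 to Dlx2 within a sample does not depend on the scaling between samples. It was 0.171, 0.459 and 0.175 in the PND samples and 2.08, 1.46 and 1.49 in the CON samples. In each CON animal the level of Dlx1 exceeded that of Dlx2, and in each PND animal it was below it. Relative to Gad1, Dlx1 likewise ranged from 0.0041 to 0.00865 in PND and from 0.0223 to 0.0511 in CON. The ratio of Dlx1 to Dlx1as was 0.079, 0.173 and 0.0539 in PND and 0.822, 0.187 and 0.536 in CON, so that PND replicate 2 and CON replicate 2 lay close together. Each of these ratios contains Dlx1, which was chosen for its difference, so their separation in part restates that difference.

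Dlx5 and Dlx6, which work downstream of the first pair, form the second pair on chromosome 6 with 9236 bases between them. Dlx5 (ENSMUSG00000029755) lies at 6877805 to 6882085 on the minus strand and Dlx6 (ENSMUSG00000029754) at 6863334 to 6868568 on the plus strand. Dlx5 was at 1.41, 2.01 and 1.70 FPKM in PND and at 1.78, 0.995 and 1.65 FPKM in CON, with a log2 difference of 0.22 (SE 0.28). Dlx6 was at 1.89, 1.71 and 1.82 FPKM in PND, a narrow range. In CON it was at 2.54, 0.672 and 2.24 FPKM, so that CON replicate 2 lay far below the others and the CON values enclosed those of PND. The log2 difference of Dlx6 was 0.18 (SE 0.45), and without CON replicate 2 it was -0.38. The ratio of Dlx5 to Dlx6 ranged from 0.743 to 1.18 in PND and from 0.701 to 1.48 in CON, with overlap between the groups.

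**Figure D2:**
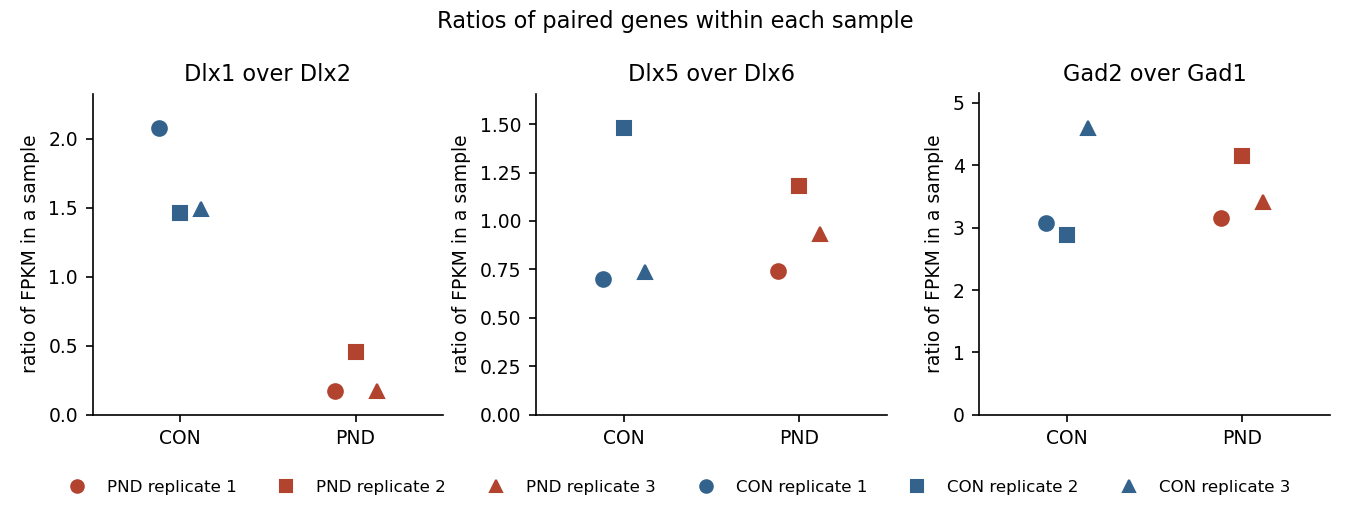
Ratio of FPKM within each sample (vertical axes, linear, from 0) for Dlx1 over Dlx2, Dlx5 over Dlx6 and Gad2 over Gad1, with 1 point per animal in CON and PND. The Dlx1 to Dlx2 ratio lies between 0.171 and 0.459 in PND and between 1.46 and 2.08 in CON, whereas the groups overlap in the ratios of the other pairs.

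Lhx6 (ENSMUSG00000026890, chromosome 2, 36081953 to 36105408, minus strand) is a LIM-homeodomain factor of interneurons from the medial eminence. It was at 1.16, 0.847 and 1.11 FPKM in PND and at 0.627, 1.24 and 1.58 FPKM in CON. CON replicate 1, which was highest for Dlx1, was lowest for Lhx6. After GC correction the log2 level of Lhx6 was -0.05 in CON replicate 1, close to 0.01 in PND replicate 3 and 0.06 in CON replicate 2. The log2 difference was -0.06 (SE 0.35), and it ranged from -0.41 without CON replicate 1 to 0.20 without CON replicate 3. Sox6 (ENSMUSG00000051910, chromosome 7, 115470872 to 116038796, minus strand), which follows Lhx6 in the maturation of these cells, was at 1.50, 1.86 and 1.48 FPKM in PND and at 1.61, 1.14 and 1.73 FPKM in CON. Its groups overlapped, with a log2 difference of 0.12 (SE 0.24).

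Gad1 and Gad2, which encode the 2 forms of glutamate decarboxylase, were the highest of the 8 genes. Both lie on the plus strand of chromosome 2, Gad1 (ENSMUSG00000070880) at 70553072 to 70602014 and Gad2 (ENSMUSG00000026787) at 22622205 to 22693874. Gad1 was at 29.9, 30.4 and 29.4 FPKM in PND and at 35.0, 23.3 and 27.5 FPKM in CON. The PND values, with an SD of 0.469 FPKM, were close to each other and inside the CON range, and the log2 difference was 0.08 (SE 0.15). Gad2 was at 94.1, 126 and 101 FPKM in PND and at 108, 67.4 and 126 FPKM in CON. Its log2 difference was 0.13 (SE 0.24), and the groups overlapped. Gad2 exceeded Gad1 in every sample, by 3.15 to 4.15 times in PND and 2.89 to 4.60 times in CON. Stretches of 50 bases of Gad1 also occur in 4 other genes, the pseudogene Gad1-ps among them. Such stretches were shared with 321 other genes for Gad2, 543 for Lhx6 and 596 for Dlx6, with 1 (Dlx1as) for Dlx1 and with 0 for Dlx2, Dlx5 and Sox6. Fragments from them may have been divided between genes.

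In order of mean level over the 6 samples, Gad2 (104 FPKM) stood above Gad1 (29.2 FPKM), and Gad1 stood above Dlx6 (1.81 FPKM), with no overlap of the sample ranges at either step. Dlx6, Dlx5 (1.59 FPKM), Sox6 (1.55 FPKM), Lhx6 (1.09 FPKM), Dlx2 (0.641 FPKM) and Dlx1 (0.596 FPKM) followed. The ranges of each neighbouring pair among these 6 overlapped, so their order is not fixed beyond the spread between samples. Gad2 was at the 99.4th percentile of the genes tested and Gad1 at the 94.7th, whereas the 6 transcription factors lay between the 22.9th and the 43.4th.

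PND was compared with CON by limma over the 18185 genes whose mean reached 0.1 FPKM, and all 8 genes passed this filter. A gene passed the cut-off of the study with an absolute log2 difference above 1 and an unadjusted p below 0.05. Of the 8 genes 1, Dlx1, passed, in the direction of lower levels in PND, beside 1.33% of all genes tested in either direction and 0.484% in that direction. With a pseudocount of 1 FPKM 0 of the 8 passed, and with a minimum mean of 1 FPKM Dlx1 and Dlx2 were not tested. The groups did not overlap in 1 of the 8 genes, again Dlx1, and in 7.66% of all genes tested. Since Dlx1 was chosen for this difference, nothing is read from these counts. The median log2 difference was 0.12 over the 8 genes and 0.01 over all genes tested. Apart from Dlx1 the differences ran from -0.06 to 0.33, each within 1 standard error of 0. A difference of moderate size could not be seen at this precision, and these values do not show that the levels were equal.

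**Figure D3:**
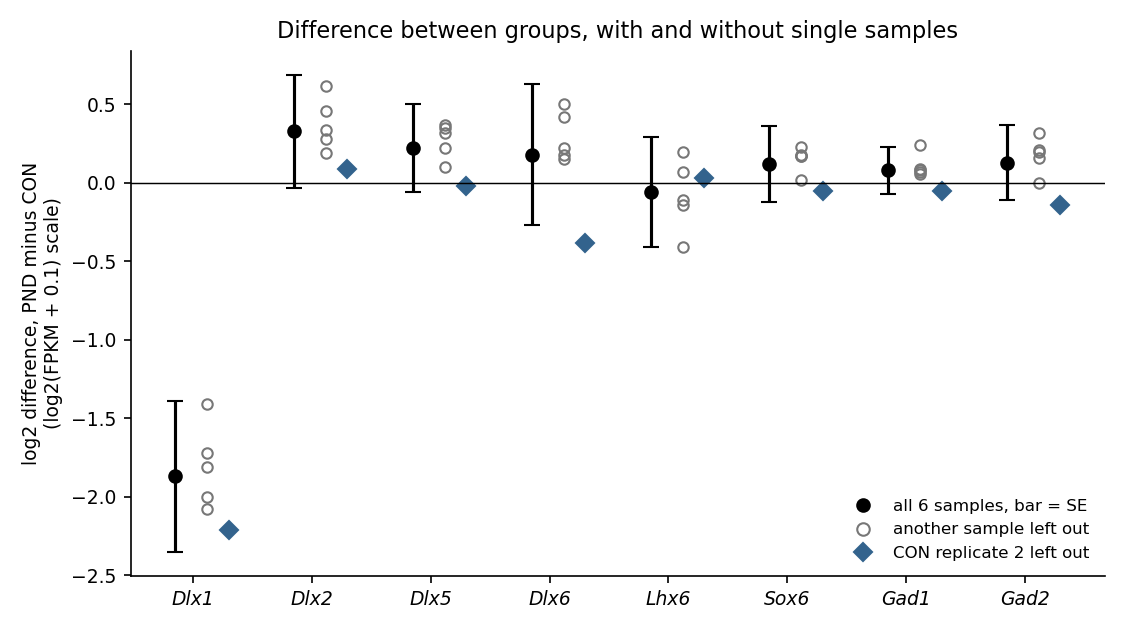
Log2 difference of PND minus CON (vertical axis, log2(FPKM + 0.1) scale) for the 8 genes, as the value from all 6 samples with its SE (black), the values with another sample left out (open circles) and the value without CON replicate 2 (diamonds). Dlx1 stays between -2.21 and -1.41, Dlx2 lies between 0.09 and 0.62, and for the other 6 genes the values lie on both sides of 0.

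CON replicate 2 was the sample that stood apart for these genes. It had the lowest level of the 6 samples in 6 of the 8 genes, whereas it was lowest in 17.1% of all genes tested. The exceptions were Dlx1, lowest in PND replicate 3, and Lhx6, lowest in CON replicate 1. Samples also differed in how the level of genes followed their GC content. After a correction for GC content CON replicate 2 was again lowest in 6 of the 8 genes, beside 20.4% of all genes tested. Without this sample 6 of the 7 genes other than Dlx1 changed the sign of their difference, and the range became -0.38 to 0.09. Dlx1 was then at -2.21, and the median of the 8 genes went from 0.12 to -0.05. Fewer cells of a type and less RNA per cell cannot be told apart in such tissue samples.

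Markers of other forebrain regions also set the same sample apart. The tissue was labelled as prefrontal cortex, and markers of cortical excitatory neurons were present, with Neurod6 at 83.2 ± 7.33 FPKM (PND) and 90.6 ± 11.8 FPKM (CON), Camk2a at 62.0 ± 5.82 FPKM and 61.5 ± 25.7 FPKM, and Nrgn at 49.0 ± 13.7 FPKM and 56.9 ± 38.4 FPKM. Markers of striatal projection neurons were also detected, with means over the 6 samples from 0.751 FPKM (Six3) to 103 FPKM (Penk). Penk, an opioid peptide precursor abundant in the striatum, averaged 104 ± 19.1 FPKM (PND) and 101 ± 48.6 FPKM (CON). Drd1, the dopamine receptor of one class of striatal neurons, was at 16.8 ± 1.23 FPKM in PND and 17.2 ± 7.47 FPKM in CON. In CON replicate 2 Penk was at 50.0 FPKM, the lowest of the 6 samples.

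The sum of 14 striatal markers was 159 FPKM in CON replicate 2, and in the other samples it was 241 to 289 FPKM (PND), 258 FPKM (CON replicate 1) and 374 FPKM (CON replicate 3). Of the 14 markers 11 were lowest in CON replicate 2. Likewise the 12 markers with a row of septum, hypothalamus and basal forebrain summed to 9.84 FPKM there, against 15.7 to 20.7 FPKM in PND. Among them were Zic1, lowest in CON replicate 2, Zic2, and Slc5a7, the choline transporter of cholinergic neurons, which averaged 4.75 ± 0.655 FPKM in PND and 3.33 ± 2.23 FPKM in CON. The sum of the 8 interneuron identity genes, most of it Gad2, was 95.7 FPKM in this sample, 131 to 163 FPKM in PND, 152 FPKM in CON replicate 1 and 162 FPKM in CON replicate 3. None of the striatal markers was at 0 in all samples. In contrast, the 15 cortical excitatory markers summed to 460 FPKM in CON replicate 2, the highest of the samples, and 10 of the 15 were highest there. The part of tissue composition in the levels of the 8 genes was not tested.

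**Figure D4:**
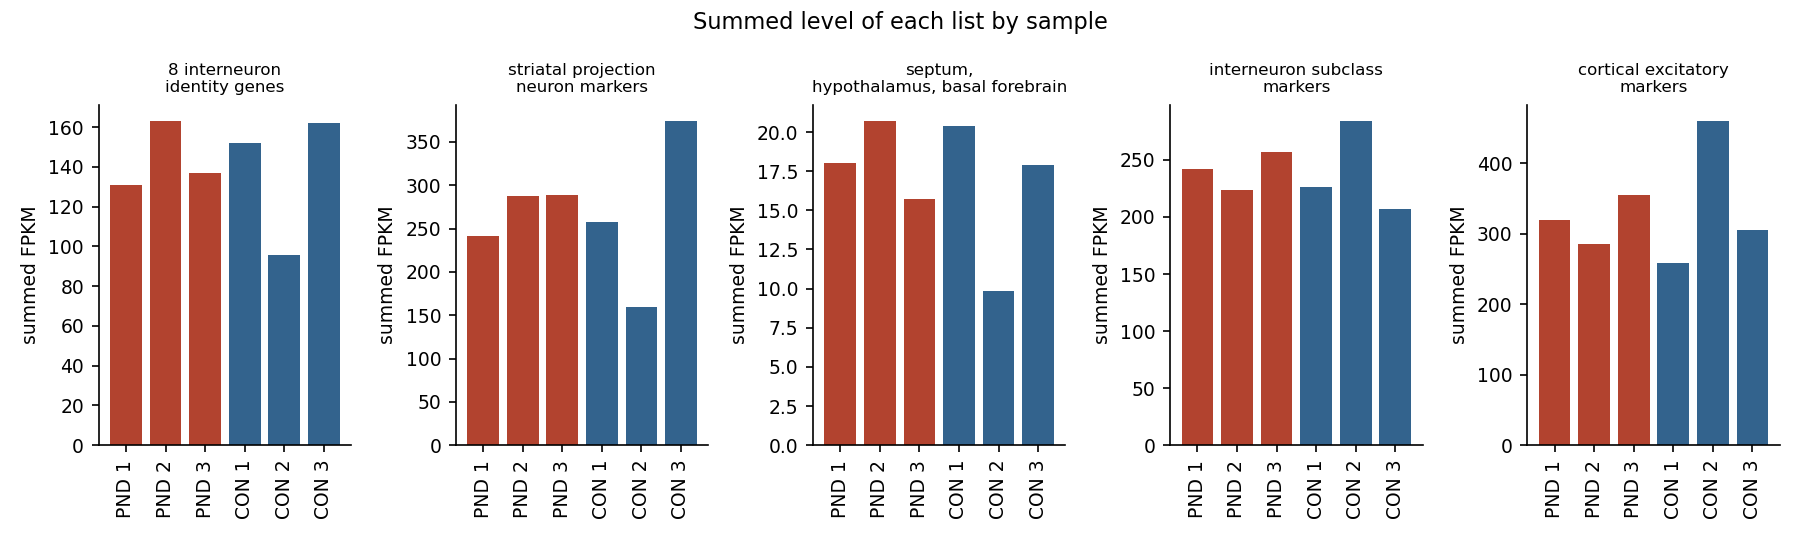
Summed FPKM of 5 gene lists (vertical axes, linear, from 0) in each of the 6 samples, PND in red and CON in blue. CON replicate 2 has the lowest bar for the 8 interneuron identity genes (95.7 FPKM), for the striatal markers (159 FPKM) and for the septum, hypothalamus and basal forebrain markers (9.84 FPKM), and the highest for the subclass markers (284 FPKM) and the cortical excitatory markers (460 FPKM).

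The other transcripts of the DLX loci were examined next. Dlx6os1, a long antisense transcript of the Dlx5 and Dlx6 locus that is typical of GABAergic neurons, was more abundant than any DLX mRNA. It was at 12.8, 15.4 and 14.1 FPKM in PND and at 14.9, 11 and 16.9 FPKM in CON, and as for Dlx5 and Dlx6 the lowest sample was CON replicate 2. Dlx6os2 (ENSMUSG00000094868, chromosome 6, 6863797 to 6865150, opposite strand of Dlx6) was at 0.250, 0.841 and 0.708 FPKM in PND and at 1.38, 0.997 and 1.23 FPKM in CON. It passed the cut-off with a log2 difference of -1.01 (SE 0.41, unadjusted p 0.0418 by limma), and its adjusted p was 1.0. The estimates behind it were 3 to 9 fragments in the PND samples and 11 to 14 in the CON samples, and 104 of its exon bases are shared with Dlx6. The call was lost with a pseudocount of 1 FPKM, with voom on estimated fragments, with GC correction, with the replicate block and with the last 2 together. It was also lost without PND replicate 1, CON replicate 1, CON replicate 2 or CON replicate 3. With a minimum mean of 1 FPKM Dlx6os2, at a mean of 0.901 FPKM, was not tested. Dlx4 was below the filter, with 0.0584 ± 0.0276 FPKM in PND and listed at 0 in the CON samples. For Dlx3 no row was found under its symbol, so it could not be examined.

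Among 23 further transcription factors of the GABAergic lineage, 22 had a row and 21 were tested. None (0) passed the cut-off by limma, and 0 had an unadjusted p below 0.05, beside 569 of all 18185 genes tested. Their median log2 difference was -0.10. Meis2, a homeodomain factor of striatal and other GABAergic neurons, was the highest of them. It was at 22.2 ± 1.38 FPKM in PND and 22.8 ± 6.68 FPKM in CON, and at 16 FPKM in CON replicate 2, its lowest sample. Zeb2, which directs migrating interneurons to the cortex, was at 13.2 ± 0.235 FPKM in PND and 14.7 ± 3.22 FPKM in CON, and Etv1 at 5.10 ± 0.408 FPKM and 5.47 ± 0.498 FPKM. Lhx8 and Nkx2-1, factors of the ventral forebrain, had log2 differences of 1.05 (SE 0.55) and 0.93 (SE 0.43), and in CON replicate 2 they were at 0.0621 and 0.152 FPKM, their lowest levels. The groups did not overlap in 4 of the 21 factors, beside 7.66% of all genes tested. Lhx8 was higher in PND, while Maf (4.83 FPKM in PND and 5.58 FPKM in CON on average), Nr2f2 (2.10 and 2.37 FPKM) and Adarb2 (2.92 and 3.22 FPKM) were lower. Without CON replicate 1 Lhx8 passed the cut-off, with a log2 difference of 1.39. Lhx8, Nkx2-1, Maf, Nr2f2 and Adarb2 were singled out after their values were seen.

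For the making, release and removal of GABA, 10 genes were tested besides Gad1 and Gad2. None (0) passed the cut-off by limma and 0 had an unadjusted p below 0.05, beside 569 of all 18185 genes tested. The median log2 difference of the 10 genes was 0.23. Glul, the glutamine synthetase of astrocytes, was at 420 ± 24.8 FPKM in PND and 361 ± 44.0 FPKM in CON. Slc38a1, a glutamine transporter, was at 31.2 ± 2.73 FPKM in PND and 29.3 ± 2.74 FPKM in CON. Abat, which breaks down GABA, was at 25.2 ± 2.18 FPKM in PND and 21.7 ± 2.01 FPKM in CON.

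The 21 markers of interneuron subclasses were all tested. Again 0 passed the cut-off by limma and 0 had an unadjusted p below 0.05, beside 569 of all 18185 genes tested. The median log2 difference of the 21 markers was 0.10. Sst, the peptide somatostatin, was at 36.9 ± 2.84 FPKM in PND and 34.1 ± 16.6 FPKM in CON. Unlike Gad1 and Gad2, Sst was highest in CON replicate 2, at 52.9 FPKM. Of the 21 subclass markers 9 were highest and 4 lowest in that sample, where 25.4% and 17.1% of all genes tested were. Calb1, the calcium-binding protein calbindin, was at 30.1 ± 3.61 FPKM in PND and 30.7 ± 7.10 FPKM in CON. Erbb4, the neuregulin receptor of interneurons, was at 25.0 ± 1.79 FPKM in PND and 26.6 ± 0.996 FPKM in CON.

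Markers of other cells in which Sox6 or the DLX genes are active were also examined. The 10 markers of oligodendrocyte precursors, which express Sox6, summed to 47.2 to 59.5 FPKM in PND and 46.6 to 63.5 FPKM in CON, and 0 passed the cut-off by limma. Tnr, Pdgfra and Gpr17 led them, with Pdgfra, the growth factor receptor that defines these cells, at 4.68 ± 1.49 FPKM in PND and 4.61 ± 0.222 FPKM in CON. The 12 markers of olfactory bulb and migrating neuroblasts, cells rich in DLX proteins, summed to 16.3 to 20.3 FPKM in PND and 15.5 to 25.6 FPKM in CON. The sum was highest in CON replicate 1, as was Dlx1. It was lowest in CON replicate 2 (15.5 FPKM), where Dlx1, at 0.521 FPKM, was above every PND sample. Of these 12, Th, Eomes and Tbx21 were below the filter, and Dcx, a protein of migrating neurons, was at 6.35 ± 2.09 FPKM in PND and 7.72 ± 2.13 FPKM in CON. Tshz1 and Cd24a were the next most abundant, and 0 of the 9 tested passed the cut-off by limma or had an unadjusted p below 0.05. The part of such cells in the level of Dlx1 was not tested. Of the 8 astrocyte markers, 15 excitatory markers, 14 striatal markers, 8 tested markers of septum, hypothalamus and basal forebrain and 5 tested markers of choroid plexus, 0 passed the cut-off. Unadjusted p-values below 0.05 by limma were found for 2, 1, 1, 0 and 1 of them, respectively. Over all genes tested such values were found for 569 of 18185. The choroid plexus list summed to 32.0 to 38.2 FPKM in PND and 33.4 to 37.7 FPKM in CON, and the astrocyte list, led by Slc1a2, Slc1a3 and Gja1, to 357 to 488 FPKM and 306 to 606 FPKM. Slc1a2 made up much of the astrocyte sum. The groups did not overlap for Gfap, an intermediate filament of astrocytes, at 21.8 ± 3.65 FPKM in PND and 13.6 ± 1.10 FPKM in CON (log2 difference 0.66, SE 0.15), nor for the water channel Aqp4, at 24.0 ± 2.14 FPKM and 30.8 ± 3.85 FPKM (log2 difference -0.36, SE 0.13). Six3, Gfap and Aqp4 were named after their values were seen. In the choroid plexus list Enpp2 was the most abundant, followed by Clic6 and Kl, and its defining gene Ttr was below the filter. Enpp2, with a mean of 32.2 FPKM over the 6 samples, made up most of the sum. The groups did not overlap in 1 of the 5 tested genes, beside 7.66% of all genes tested. This was Clic6, at 1.84 ± 0.319 FPKM in PND and 1.05 ± 0.399 FPKM in CON (log2 difference 0.80, SE 0.30).

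Genes with a pattern like that of Dlx1 were ranked by Pearson correlation over the 6 samples, on log2(FPKM + 0.1), among 12323 genes averaging at least 1 FPKM. The closest were Pcdhb17 (0.995), Sema6a (0.987), Trdmt1 (0.984), Zfp273 (0.984) and Soga3 (0.981). Pcdhb17, a clustered protocadherin, was at 8.39 FPKM in PND and 10.8 FPKM in CON on average, a much smaller difference than that of Dlx1. With so few samples 99 genes exceeded 0.9, and all share the same libraries. The pattern of Gad1 and Gad2, averaged, was closest to that of Sgk3 (0.996), 2900052N01Rik (0.990), St8sia6 (0.989), Zfp595 (0.989) and Brinp3 (0.988), each lowest in CON replicate 2.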

How the data were processed

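Ribosomal RNA was removed, libraries were sequenced on an Illumina instrument, and the authors filtered reads with Seqtk, aligned them with HISAT2, counted fragments per gene with StringTie and scaled them by TMM. The deposited values are FPKM, in 1 column per animal. Build and annotation are not given in the sources used here, and the submitters' processing notes also name Bowtie 0.12.2 and the builds mm8 and mm9 without a role. Symbols were matched by Ensembl identifier (20866 of 21006), and coordinates, exon lengths and GC content are those of GENCODE M21 on GRCm38.

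PND and CON were compared with limma 3.58.1 under R 4.3.3 (lmFit and eBayes with a trend) on log2(FPKM + 0.1), with no covariate. Adjusted p-values followed Benjamini-Hochberg over all 18185 genes tested. The fit was checked on simulated data. Effective depth, estimated from the steps of low values, was 7210963 to 9384116 fragments per sample. Of the low values (0.5 to 20.5 fragments), 41.6% to 44.8% came within 0.05 of whole reads, so fragments are estimates. The sum of FPKM ranged from 215640 to 240447. Alternatives were other pseudocounts, filters and scalings, no trend, GC correction, a replicate block, voom (limma) on estimated fragments, and single samples left out.

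The members and lists were chosen with earlier results of these data known. Named were all 8 members and, from each list, genes past the cut-off and the 3 most abundant. Outside this rule, chosen after their values were seen, are the genes named as below the filter and those so marked in the text. Some named genes are not reported here. For each pattern the 5 most similar genes were named.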

Additional observations from a re-analysis of the deposited data

How the results depend on the processing

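The number of genes past the cut-off, which uses the unadjusted p, was 241, 153 higher and 88 lower in PND. Only 2 of the 18185 genes tested had an adjusted p below 0.05 by limma. With quantile normalization it was 240, 124 higher and 116 lower. It was 25 with a pseudocount of 1 FPKM and 59 with a minimum mean of 1 FPKM, and from 235 to 388 with single samples left out. Without CON replicate 2 it was highest, with 286 higher and 102 lower in PND. Without PND replicate 3 the balance turned, with 107 higher and 128 lower. With the replicate block the number was 226. Same-numbered samples share only a number. Their deviations correlated at -0.0487, -0.451 and 0.0274 across genes, and not every sample correlated best with its own number.

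Of the 8 interneuron identity genes 1, Dlx1, passed the cut-off. This became 0 with a pseudocount of 1 FPKM, where the difference of Dlx1 was -0.73, and 0 with a minimum mean of 1 FPKM, where Dlx1 and Dlx2 were not tested. In the other 15 alternatives with a value Dlx1 passed, the replicate block included. The median log2 difference of the members, 0.12, ranged from 0.08 to 0.14 with all samples and from -0.05 to 0.25 with single samples left out. Of the other listed genes 1 passed, Dlx6os2. With a pseudocount of 1 FPKM, a minimum mean of 1 FPKM, the replicate block, GC correction, both together and voom, 0 passed. With single samples left out it was 0 to 5, with 0 without CON replicate 2, 2 without PND replicate 3 (Dlx6os2 and C1ql1) and 5 without CON replicate 3 (Nkx2-1, Clic6, Slc5a7, Crh and Gbx1), and the single genes past it without PND replicate 1 and CON replicate 1 were Neu4 and Lhx8. At 6.11 to 11.2 estimated fragments, depth limits how precisely the PND level of Dlx1 is known.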
